A study of Mus musculus with 36 samples.

Results

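The genes described here are 9 genes typical of cerebellar granule cells, *Cbln1*, *Cbln3*, *Fat2*, *Zic1*, *Zic2*, *Etv1*, *Neurod1*, *Reln* and *Chn2*, among 24421 genes counted in each tissue. They were taken by name from the count tables of the cerebellum and of the hippocampus. Poly(A) RNA of both tissues was sequenced from the same 18 adult C57Bl/6 mice, 3 males and 3 females in each of 3 genotypes, and reads were counted per gene. Control mice carried Pogzfl/fl without *Cre*, cKO+/- mice carried NesCre/+ with Pogzfl/+, and cKO-/- mice carried NesCre/+ with Pogzfl/fl, so every cKO mouse and no control carried *Cre*. NesCre is driven by the Nestin promoter, which is active in neural progenitors, so the deletion is not restricted to granule cells. The comparisons address whether the loss of 1 or 2 alleles of *Pogz*, a chromatin regulator, altered the level of these genes in the cerebellum, with the hippocampus as a contrast.

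Granule cells are the most numerous neurons of the cerebellum and of the brain. They are born in the external granular layer, migrate inward past Purkinje cells, and send parallel fibres into the molecular layer, where they excite Purkinje cells and interneurons. Cerebellins released from parallel fibres link the granule cell to receptors on the Purkinje cell, and reelin made by granule cells positions Purkinje cells through the receptors ApoER2 and VLDLR.

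Total counts came to between 21421850 and 32544929 per cerebellar library and between 17609321 and 45544188 per hippocampal library. The targeted gene, *Pogz*, averaged 99.5 ± 15.2 CPM (counts scaled to the library total, SD, n = 6) in control cerebellum, 77.6 ± 5.77 CPM in cKO+/- and 65.7 ± 7.33 CPM in cKO-/- cerebellum, where reads from the undeleted exons are still counted. Animals are named as in their labels. Of the 18 animals, 11 are numbered between Sample_1120 and Sample_1219, a range that holds every control. Another 3 are numbered below Sample_1120 (Sample_933 and Sample_938, cKO+/-, and Sample_936, cKO-/-) and 4 above Sample_1219 (Sample_1433, cKO+/-, and Sample_1371, Sample_1379 and Sample_1385, cKO-/-). The labels do not say what the numbers stand for, and no control lies outside the middle range. One hippocampal control library, that of Sample_1129, held transcripts typical of the cerebellum. Fits of the control tissues, of alleles lost in hippocampus and of the allele effect between tissues are given below with and without it. Fits of the hippocampus are given first for 17 libraries, without Sample_1160 (cKO-/-).

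In GRCm38, *Cbln1* spans chr8:87468853-87472592, *Cbln3* chr14:55878920-55884256, *Fat2* chr11:55250610-55312257, *Zic1* chr9:91360345-91365799, *Zic2* chr14:122475384-122480328, *Etv1* chr12:38780258-38868215, *Neurod1* chr2:79452641-79456636, *Reln* chr5:21884454-22344705 and *Chn2* chr6:54039932-54301812. All 9 genes were counted in every cerebellar library. Because longer transcripts collect more reads, levels are compared between genes only as CPM per kilobase of gene length. On that scale, control cerebellum held 415 ± 45.2 of *Cbln3* and 408 ± 42.5 of *Cbln1* (SD, n = 6), which did not differ beyond their spread. *Chn2* followed at 271 ± 18.5, then *Zic1* at 232 ± 19.6 and *Neurod1* at 229 ± 5.76, which also lay within their spread of each other. *Zic2* at 127 ± 8.38, *Fat2* at 74.8 ± 10.8, *Etv1* at 63.7 ± 5.63 and *Reln* at 36.01 ± 5.71 CPM per kilobase closed the order, and *Fat2* and *Etv1* overlapped within 1 SD of each mean.

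Sequences upstream of the start sites of 7 of the 9 genes were found in RefSeq's table (GRCm38.p6), and *Cbln1* and *Zic2* were not among them. The starts are those annotated, and whether transcripts begin there in these tissues was not tested. The 100 bases upstream of the start are shown for *Cbln3* and *Fat2*, whose hippocampal levels lay near 0, and for *Neurod1* and *Reln*, which both tissues expressed. Capitals mark matches to the E-box letters CANNTG, which basic helix-loop-helix factors such as NEUROD1 and ATOH1 can bind, read on both strands, on which these letters are the same. *Cbln3* (chr14:55884257-55884356, minus strand), *Fat2* (chr11:55312258-55312357, minus strand), *Neurod1* (chr2:79456637-79456736, minus strand) and *Reln* (chr5:22344706-22344805, minus strand) read, from 5′ to 3′:
Cbln3: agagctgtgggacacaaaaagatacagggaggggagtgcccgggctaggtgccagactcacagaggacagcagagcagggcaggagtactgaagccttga
Fat2: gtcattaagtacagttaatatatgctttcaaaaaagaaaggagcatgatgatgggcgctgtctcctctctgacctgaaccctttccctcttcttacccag
Neurod1: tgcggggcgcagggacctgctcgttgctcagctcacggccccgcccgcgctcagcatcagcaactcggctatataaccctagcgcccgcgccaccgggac
Reln: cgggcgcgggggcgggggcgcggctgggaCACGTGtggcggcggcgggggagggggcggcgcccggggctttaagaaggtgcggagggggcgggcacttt

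Within 250 bases upstream, CANNTG was found once for each of these 4 genes, 168 bases before the start of *Cbln3*, 125 before that of *Fat2*, 242 before that of *Neurod1* and 71 before that of *Reln*. These letters are common, since 66.2% of the 32851 promoters in the table hold them in the same window. Neither TATAAA, found in 12.4% of promoters, nor the ETS letters CCGGAAGT, found in 2.88%, occurred in the window of any of these 4 genes. The share of G and C in the window was 80.0% for *Reln*, 67.6% for *Neurod1*, 57.6% for *Cbln3* and 41.6% for *Fat2*. The median over all promoters was 52.4%. Among the genes not shown, the share was 66% for *Zic1*, and 46.4% and 44.4% at the starts of *Etv1*. At the starts of *Chn2* it was 74.8%, 50.4%, 44.8% and 55.2%. The 4 genes shown were chosen by their hippocampal levels, and a link of this share to tissue was not tested.

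Loss of *Pogz* alleles was not followed by a change of any of the 9 genes that passed the test in the cerebellum. In edgeR's quasi-likelihood test per allele lost, 0 of 9 genes passed an FDR of 0.05, where 13.7% of the 14027 genes tested did so in either direction and 6.55% in the direction of lower levels. At an unadjusted p under 0.05 there was 1 of 9, *Chn2*, where 30.2% of all genes tested had such a p, and DESeq2 called 0 of 9 and 2569 genes in all. All 9 estimates lay below 0, with a median log2 difference of -0.135 per allele against 0.000868 over all genes tested. *Chn2* was called in the fits without Sample_1160 or without Sample_1219, where its log2 difference per allele was -0.26 (adjusted p = 0.0427) and -0.28 (adjusted p = 0.0292).

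Among the cerebellins, *Cbln1*, the synaptic organizer of parallel fibre synapses, ran from 801 to 1055 CPM in control cerebellum with a median of 981, from 567 to 1181 with a median of 994 in cKO+/-, and from 520 to 1050.4 with a median of 845 in cKO-/-. The genotypes overlapped, and the lowest values were those of Sample_1385, Sample_1371 and Sample_1433. Per allele lost the log2 difference of *Cbln1* was -0.13, with a 95% interval from -0.32 to 0.05 (adjusted p = 0.318). *Cbln3*, which is secreted as a complex with CBLN1, ran from 1702 to 2272 CPM in controls and from 1224 to 2319.8 in cKO-/-, with medians of 1995 and 1636. In cKO+/- it reached 2460.2 with a median of 1991, and Sample_1433 lay below every control. Its log2 difference per allele was -0.10, from -0.28 to 0.07 (adjusted p = 0.429).

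*Fat2*, an atypical cadherin of parallel fibres, had the widest spread relative to its mean in cKO-/- cerebellum, with a coefficient of variation of 43.4%, and ran there from 422 to 1276 CPM with a median of 823. Controls ran from 847 to 1269 CPM with a median of 1121, and cKO+/- from 586 to 1262 with a median of 1021. Sample_1371, Sample_1379 and Sample_1385 stood at 599, 516 and 422 CPM, while the other cKO-/- animals, Sample_936, Sample_1160 and Sample_1219, stood at 1047, 1276 and 1115 CPM, inside or just above the control range. The log2 difference of *Fat2* per allele was -0.19, from -0.44 to 0.06 (adjusted p = 0.286).

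Among the transcription factors, *Zic1*, a zinc finger factor of granule cell precursors and mature granule cells, ran from 681 to 879 CPM in controls, from 527 to 920.4 in cKO+/- and from 451 to 863 in cKO-/-, and its paralog *Zic2* ran from 341 to 415, from 242 to 472 and from 214 to 388 CPM. *Etv1*, an ETS factor of maturing granule cells, ran from 231 to 299 CPM in controls, from 169 to 291 in cKO+/- and from 140.4 to 302 in cKO-/-. *Neurod1*, needed for granule cell differentiation, was the tightest in controls, from 561 to 597 CPM, and ran from 323 to 638 in cKO+/- and from 316 to 680.1 in cKO-/-. For each of these 4 genes some cKO-/- libraries lay below every control and others lay among the controls or above them. Their log2 differences per allele were -0.10 for *Zic1*, -0.13 for *Zic2*, -0.17 for *Etv1* and -0.12 for *Neurod1*, with adjusted p of 0.345, 0.267, 0.203 and 0.364 in edgeR's test. Part of the sequence of *Etv1* is shared, since 21.3% of the 43-base windows of its transcripts also occur in the annotated gene *Gm5454*. That gene is not among the genes counted, and how reads that match both were handled is not stated. The counts of *Etv1* carry that uncertainty.

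*Reln*, which encodes the secreted glycoprotein reelin, ran from 322 to 503 CPM in controls with a median of 435, from 279 to 464 with a median of 393 in cKO+/-, and from 199 to 456 with a median of 320.0 in cKO-/-. *Chn2*, which encodes beta-chimaerin, a GTPase-activating protein for RAC, ran from 845 to 992 CPM in controls with a median of 939, from 522 to 989 with a median of 841 in cKO+/-, and from 449.6 to 964 with a median of 642 in cKO-/-. In *Chn2*, 4 cKO-/- animals (Sample_936, Sample_1371, Sample_1379 and Sample_1385) lay below every control and 2 (Sample_1160 and Sample_1219) lay in the control range. The log2 difference per allele was -0.20 for *Reln*, from -0.39 to 0.00254 (adjusted p = 0.171), and -0.21 for *Chn2*, from -0.39 to -0.03 (adjusted p = 0.0991). Exons of *Chn2* overlap *9130019P16Rik* on the opposite strand over 1104 bases, and whether counting used strand is not stated. That gene averaged 3.19 CPM in control cerebellum and 16.1 CPM in control hippocampus.

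**Figure D1:**
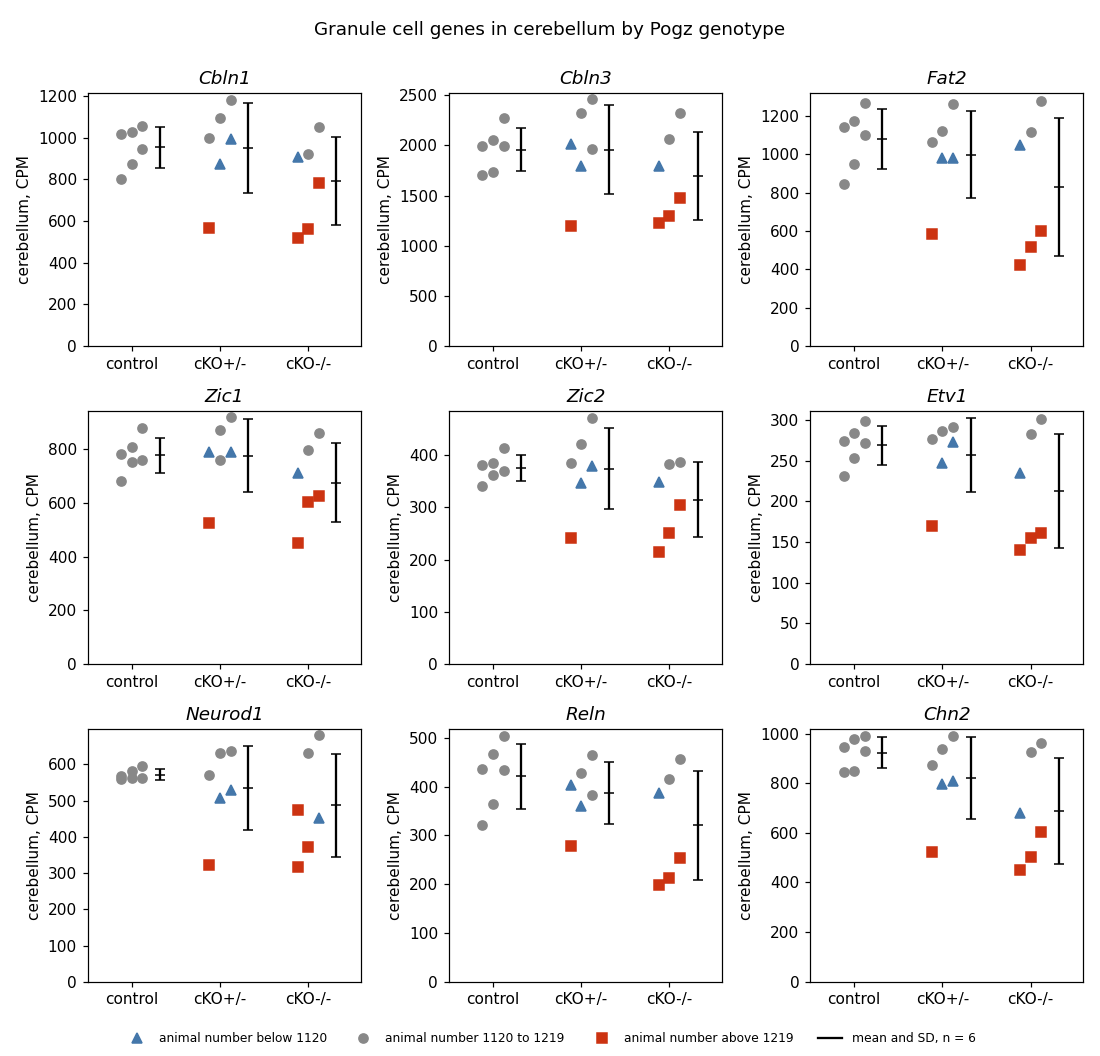
Levels of the 9 granule cell genes in cerebellum in CPM, on linear axes that start at 0, by genotype. Each point is 1 animal, its shape and colour give the range of its animal number, and bars give the mean and SD of 6 animals. The animals numbered above Sample_1219 (squares) hold the lowest values of both cKO groups for 8 of the genes, while for *Neurod1* Sample_936 lies among them.

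The pairwise fits gave the same count. Between cKO-/- and control cerebellum 0 of 9 genes were called, against 12.7% of all genes tested, and in an exact two-sided permutation test of single genes p ran from 0.0368 for *Chn2* to 0.188 for *Cbln3*, with 0.00216 the smallest p that 6 against 6 allows. Between cKO+/- and control 0 of 9 were called against a background of 0.342%, and between cKO-/- and cKO+/- 0 of 9 against 0.413%. DESeq2 called 0 of 9 in each of these 3 comparisons. The ranges of cKO-/- and control overlapped for each of the 9 genes, while 4.58% of all genes tested showed no overlap. The difference of the allele effect between males and females was called for 0 of 9 genes, with 0 of 9 at an unadjusted p under 0.05. Over all genes edgeR called 0 of 14027, or 0%, with 557 at an unadjusted p under 0.05, and DESeq2 called 0.

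The low libraries of the cerebellum were those of the 4 animals numbered above Sample_1219, in cKO+/- as well as in cKO-/-. The sum of the 9 genes ran from 3937 to 5154 CPM in these 4 animals, from 6559 to 7085 CPM in the 3 animals numbered below Sample_1120, and from 6730 to 8455 CPM in the 11 animals between. In a model with sex, alleles lost and the 3 ranges of numbers, a term chosen after the values were seen, 9 of 9 genes were lower above Sample_1219 than within Sample_1120 to Sample_1219, where 9.51% of all genes tested were lower. Their median log2 difference was -0.785, against 0.0276 over all genes. *Fat2* was lowest at -1.14, from -1.40 to -0.89 (adjusted p = 4.39e-05), followed by *Etv1* at -0.85, *Reln* at -0.84 and *Chn2* at -0.83, and *Zic1* differed least at -0.60 (adjusted p = 0.000909). In the 3 animals below Sample_1120 none of the 9 genes was called, where 0.962% of all genes were called and 0 of them lower, with 2 of 9, *Neurod1* and *Chn2*, at an unadjusted p under 0.05 and a median of -0.168.

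With the ranges in the model the sign of most allele estimates turned. The median log2 difference of the 9 genes per allele lost was 0.0475 with the 3 ranges as a term and 0.0622 among the 11 animals numbered Sample_1120 to Sample_1219, of which 2 are cKO-/- (Sample_1160 and Sample_1219) and 3 are cKO+/-. None of the 9 genes was called in either fit, and 1 of 9 had an unadjusted p under 0.05 in the second, *Neurod1* at 0.10, from 0.03 to 0.17. *Fat2* stood at 0.08, from -0.06 to 0.22, and *Chn2* at 0.02, from -0.07 to 0.10, in those 11 animals. The range of numbers and the genotype cannot be told apart above Sample_1219, where no control exists.

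**Figure D2:**
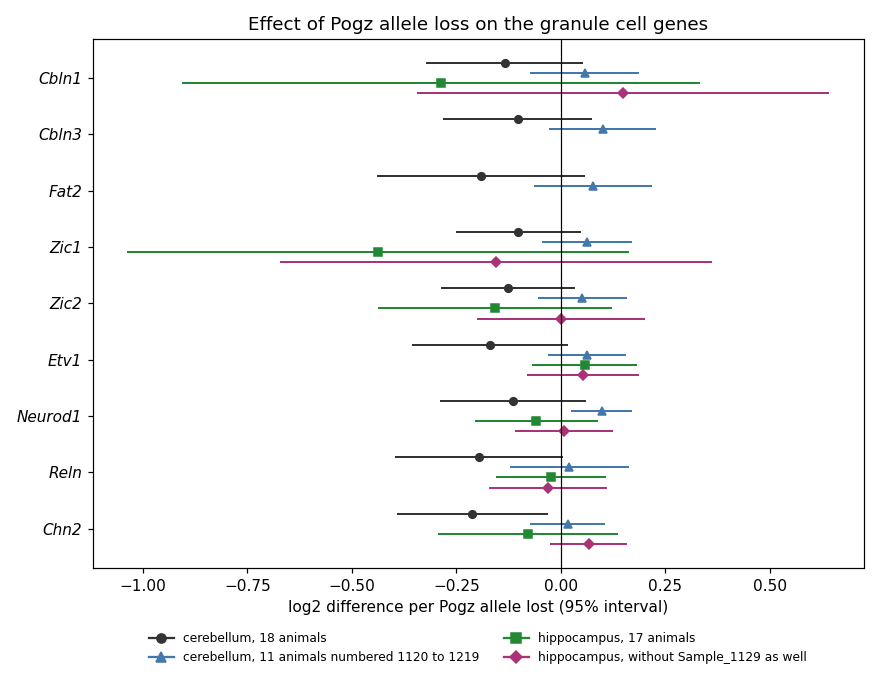
Log2 difference per *Pogz* allele lost for each gene, with its 95% interval, in cerebellum over 18 animals, in the 11 animals numbered Sample_1120 to Sample_1219, in hippocampus over 17 animals, and in hippocampus without Sample_1129 as well. *Cbln3* and *Fat2* were too low to be tested in hippocampus, and all 9 cerebellar estimates lie left of 0 over 18 animals and right of 0 among the 11.

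Of 22 further genes of granule cells, 18 were lower above Sample_1219 than within Sample_1120 to Sample_1219, where 9.51% of all genes tested were lower. The median log2 difference of the 22 was -0.596, against 0.0276 over all genes. The term for the ranges was chosen after the values were seen. Among those not called was *Barhl1* at -0.22 (adjusted p = 0.254 in edgeR's test). *Gabra6*, the GABA-A receptor subunit nearly restricted to granule cells, stood at -0.65 (adjusted p = 0.000327), *Gabrd*, its partner in extrasynaptic receptors, at -0.76 (adjusted p = 0.000296) and *Slc17a7*, the vesicular glutamate transporter VGLUT1 and named after its value was seen, at -0.76 (adjusted p = 0.000249). Per allele lost over all 18 animals, 2 of the 22 passed the test, both lower, a share near the 6.55% of all genes, *Barhl1* at -0.29 and *Meis1* at -0.19, with adjusted p of 0.00315 and 0.0311. *Gabra6* at -0.17 and *Gabrd* at -0.21 did not pass (adjusted p = 0.113 and 0.0990), nor did the paralogs of members on this list, *Zic4* at 0.05, *Zic5* at -0.07 and *Neurod2* at -0.02. Among 9 genes of granule cell precursors, 6 were tested and 1, *Dcx*, a microtubule protein of migrating neurons, rose per allele lost by 0.37 (adjusted p = 0.0046), where 7.11% of all genes tested rose. *Atoh1*, the factor that specifies granule cell precursors, was too low to be tested.

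Per allele lost, 6.55% of all genes tested passed lower and 7.11% higher, the background for the counts that follow. Of 8 partners and relatives of the cerebellins 6 were tested and 1 passed, *Nrxn3*, a neurexin, at -0.14 (adjusted p = 0.0414). It was also lower above Sample_1219, at -0.34. In the reelin pathway 11 of 11 genes were tested and 1 passed, *Itgb1*, an integrin subunit, higher by 0.13 (adjusted p = 0.0216). The reelin receptors *Lrp8* and *Vldlr* stood at 0.00334 and 0.07 and the adaptor *Dab1* at -0.00215 per allele, none of which passed. Of 8 paralogs of the members 7 were tested and 2 rose per allele, *Fat4* at 0.26 and *Neurod6* at 0.25, with adjusted p of 0.0293 and 0.0377. *Chn1* stood at 0.13 (adjusted p = 0.0655).

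Markers of other cell types and tissues also differed between the ranges of numbers, where 10.6% of all genes were higher above Sample_1219. The summed level of 8 choroid plexus genes ran from 35.6 to 3192 CPM above Sample_1219, from 24.0 to 3060 below Sample_1120 and from 21.2 to 29.3 within Sample_1120 to Sample_1219, with 5 of 6 tested genes higher above Sample_1219. The choroid plexus sum was above 1000 CPM in 3 libraries, Sample_1433 above the middle range and Sample_933 and Sample_936 below it. Summed over 6 genes of the meninges, the level ran from 415 to 514 CPM above Sample_1219 against 357 to 509 below Sample_1120 and 190 to 333 within, and 6 of 6 were higher above Sample_1219. Microglial genes summed to between 73.3 and 107 CPM above Sample_1219 and between 87.6 and 97.95 below Sample_1120 against 62.6 to 80.0 within, with 3 of 5 higher above Sample_1219, *Csf1r*, *Cx3cr1* and *P2ry12*. Of 16 midbrain and brainstem genes 4 were tested and 2 were higher, *Tal1* and *Th*, and of 7 Purkinje cell genes 0 were called in edgeR's test. Of 6 interneuron genes *Pvalb* and *Gad1* were higher and *Grm2* was lower, with sums from 1854 to 2771 CPM above Sample_1219 and from 1770 to 2125 within. *Tcf7l2* and *Slc17a6* of the thalamic and habenular list and *Sst* and *Npy* of the reelin cell list were higher there. The endothelial *Flt1* was lower. The summed Purkinje level ran from 9315 to 19240 CPM above Sample_1219 and from 8477 to 13840 within. Per allele lost, 5 of 6 meningeal genes, 2 of 5 microglial genes (*P2ry12* and *Cx3cr1*), 3 of 5 genes of astrocytes and Bergmann glia (*Gfap*, *Aqp4* and *Hopx*) and 2 of 6 interneuron genes (*Slc32a1* and *Kit*) rose, against 7.11% of all genes, and 0 of 6 oligodendrocyte genes passed. Of 7 Purkinje cell genes 1 (*Slc1a6*) rose as well, as did 1 of 4 midbrain and brainstem genes (*Tph2*). So did 1 of 3 dentate gyrus genes (*Tdo2*) and 1 of 6 genes of other reelin-producing cells (*Sst*), against the same 7.11%. None passed among 6 choroid plexus, 7 thalamic and habenular, 3 endothelial and 2 unipolar brush cell genes. With the scores of the brainstem and choroid plexus lists as covariates, 9 of 9 granule cell genes stayed below 0 per allele, from -0.13 to -0.03 with a median of -0.068 and 0 called, while 7 of 9 turned above 0 between cKO+/- and control. The part of the other cell types was not tested, and in bulk tissue fewer granule cells and less RNA per cell cannot be told apart.

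**Figure D3:**
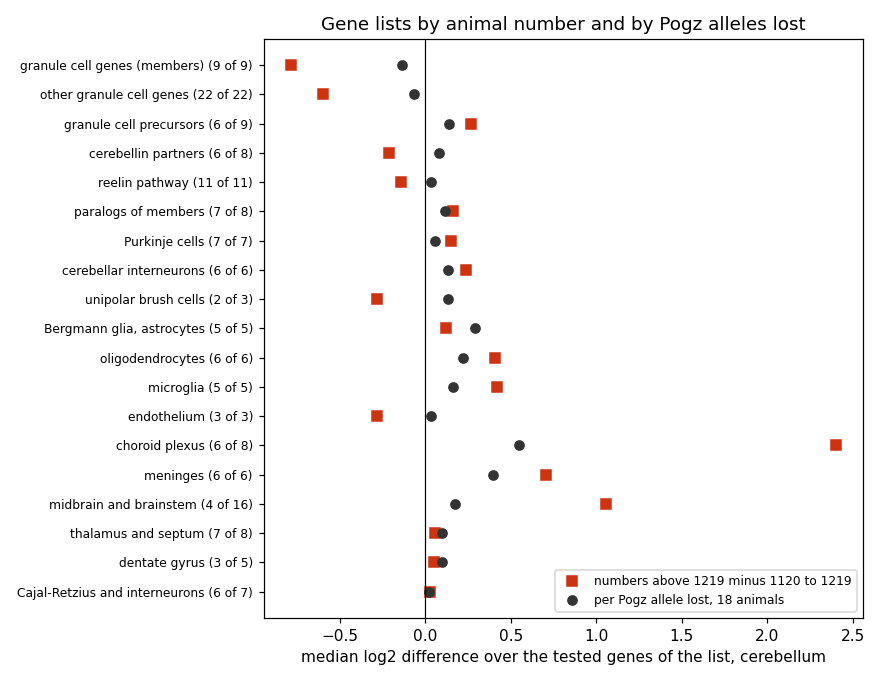
Median log2 difference in cerebellum over the tested genes of each list (number tested of number listed in brackets), for animals numbered above Sample_1219 against Sample_1120 to Sample_1219 (squares) and per *Pogz* allele lost over 18 animals (circles). The granule cell genes have the lowest square at -0.785 and the choroid plexus list the highest at 2.40. Above Sample_1219 the choroid plexus sum was 3192 CPM in Sample_1433 and 52.4, 80.5 and 35.6 CPM in Sample_1371, Sample_1379 and Sample_1385. The row labelled thalamus and septum holds thalamic and habenular genes.

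The 9 genes varied together over the 18 cerebellar libraries taken as a whole. Over 18 cerebellar libraries, with the mean of each genotype and sex removed, the 36 pairwise correlations of log2 CPM ran from 0.71 to 0.983 with a median of 0.905, values that share library and depth. Without removing the means they ran from 0.732 to 0.981. The ranges of animal numbers were not removed, so the low libraries above Sample_1219 enter every correlation given here. Correlations within a range of numbers, or between all pairs of genes, were not computed. The closest gene to *Cbln1* among all genes tested was *Zic2* (r = 0.983), and the closest to *Neurod1* was *Chn2* (r = 0.973). For the others the closest were *Sowaha* to *Cbln3* (0.977), *Camk4* to *Fat2* (0.975), *Cadm3* to *Zic1* (0.978), *Rasa3* to *Etv1* (0.988), *Soga1* to *Reln* (0.983) and *Olfm3* to *Chn2* (0.989), each over 18 libraries.

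Compared with the hippocampus, the 9 genes separated into those that were nearly absent there and those expressed in both tissues. The hippocampal library of Sample_1129 stood apart from the others. In it *Cbln3* stood at 71.4 CPM (2566 counts), where the other 17 hippocampal libraries ran from 0.30 to 1.72 CPM, and *Fat2* stood at 42.1 CPM against at most 1.64. *Gabra6* stood at 49.4 CPM against at most 1.09, and the Purkinje cell genes *Pcp2* and *Ppp1r17* at 19.2 and 16.8 CPM against at most 0.893 and 0.414. Relative to the cerebellum of the same animal, the excess over the median of the other hippocampal libraries came to 4.09% for *Cbln3*, 3.56% for *Fat2*, 4.15% for *Cbln1*, 7% for *Zic1*, 6.93% for *Zic2*, 3.71% for *Neurod1* and 3.57% for *Chn2*. *Etv1* and *Reln* showed no excess, at 54.7 and 67.3 CPM, within the range of the other libraries, 40.5 to 81.9 and 39.9 to 114 CPM. In the cerebellum of that animal they stood at 299 and 468 CPM. An excess of the percentages seen for the other genes could lie within that range, so its absence cannot be told.

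**Figure D4:**
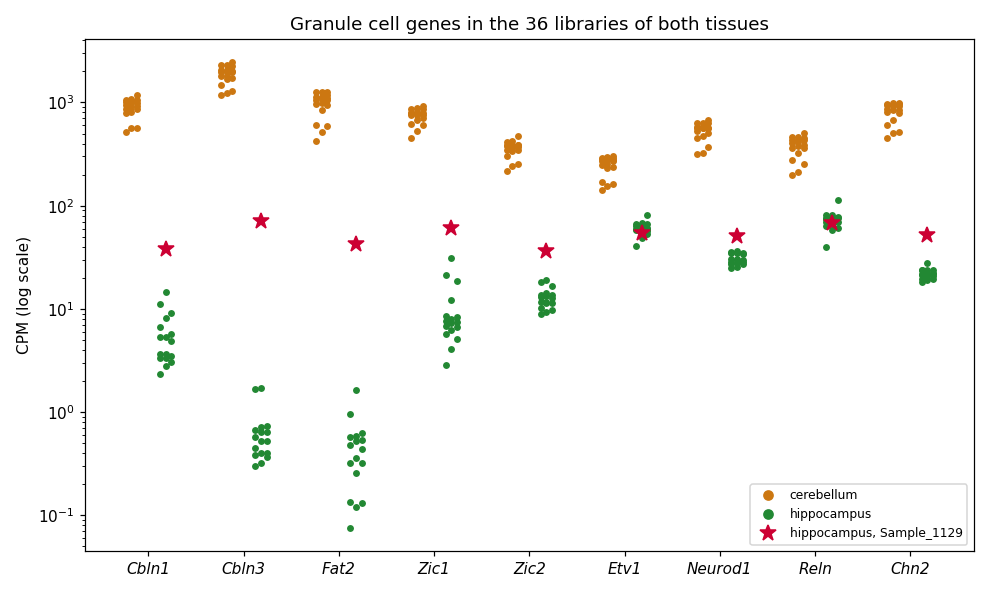
CPM of the 9 genes on a log axis in 18 cerebellar and 18 hippocampal libraries, with the hippocampal library of Sample_1129 as a star. The star lies above all other hippocampal libraries for 7 genes and among them for *Etv1* and *Reln*.

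In control animals all 9 genes were higher in cerebellum than in hippocampus, where 36.7% of the 14224 genes tested were higher in cerebellum and 71.9% differed in either direction. With Sample_1129 left out all 9 were still called, and so they were with the animal as a block, the pairing given by the labels. DESeq2 called the 6 members to which it gave an adjusted p and gave none to *Cbln1*, *Cbln3* and *Fat2*. Without Sample_1129 and without the block, the log2 difference was 11.3 for *Cbln3* (adjusted p = 1.31e-10), 10.97 for *Fat2* (6.44e-11) and 7.90 for *Cbln1* (7.23e-12). With that animal these 3 differences were 8.19, 7.91 and 6.89. *Zic1* at 6.16, *Chn2* at 5.37, *Zic2* at 4.83 and *Neurod1* at 4.09 followed, and *Reln* at 2.41 and *Etv1* at 2.14 differed least between the tissues (adjusted p = 1.07e-08 and 1.54e-08).

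Control hippocampus without Sample_1129 held 72.5 ± 6.46 CPM of *Reln* (SD, n = 5), which interneurons and remaining Cajal-Retzius cells make there, 55.9 ± 9.04 of *Etv1*, 31.6 ± 4.36 of *Neurod1* and 21.3 ± 2.03 of *Chn2*. *Zic2* stood at 12.7 ± 3.08, *Zic1* at 11.7 ± 10.9 and *Cbln1* at 3.90 ± 1.13 CPM. *Zic1* varied most, from 5.16 to 31.1 CPM, with Sample_1172 at the top. *Cbln3* at 0.763 ± 0.546 and *Fat2* at 0.494 ± 0.31 CPM were below the limit of 1 CPM for testing in most libraries.

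In the hippocampus 7 of the 9 genes were tested per allele lost and 0 were called, where 4.44% of 14339 genes were, with 0 of 7 at an unadjusted p under 0.05 and 0 of 7 called by DESeq2. The estimates ran from -0.44 for *Zic1* (from -1.04 to 0.16), which was -0.15 without Sample_1129, to 0.06 for *Etv1*. Without Sample_1129 the estimates of 4 genes turned from below to above 0: *Cbln1* from -0.29 to 0.15, *Zic2* from -0.16 to 0.000437, *Neurod1* from -0.06 to 0.00731 and *Chn2* from -0.08 to 0.07. With all 18 libraries 0 of 7 were called. *Cbln3* and *Fat2* could be fitted only without the filter on low counts, where they stood at -2.05 and -2.02 per allele (adjusted p = 0.125 and 0.128 in edgeR's test), and at -0.34 and -0.33 without Sample_1129 as well. In cKO-/- against control hippocampus 0 of 7 were called against 4.87% of all genes, and for 0 of 7 did the groups lie apart, against 3.65%. Both counts include Sample_1129. Without it 0 were called as well, but *Cbln1* moved from -0.61 to 0.28, *Chn2* from -0.14 to 0.13 and *Neurod1* from -0.10 to 0.016. *Zic1*, *Zic2* and *Reln* stayed below 0. Whether the groups lie apart was not computed without it.

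For numbers above Sample_1219 against Sample_1120 to Sample_1219, 0 of 7 genes were called in hippocampus, where 6.92% of all genes were, with a median log2 difference of 0.237 and 1 of 7, *Reln* at 0.36, at an unadjusted p under 0.05. Sample_1129 lies in the middle range and was kept in this fit, which was not repeated without it. The difference of the allele effect between the tissues, tested as an interaction, was called for 0 of 7 genes, with 1.49% of 13587 genes called, and ran from -0.22 for *Etv1* (from -0.45 to 0.01) to 0.34 for *Zic1* (from -0.24 to 0.93), which was 0.05 without Sample_1129. DESeq2 called 0 of 7 as well. Without Sample_1129 the difference for *Chn2* was -0.29, from -0.51 to -0.07 (adjusted p = 0.225), the 1 gene of 7 with an unadjusted p under 0.05.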

How the data were processed

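The authors extracted RNA with a lipid tissue kit, prepared poly(A) libraries with TruSeq, sequenced 43-base paired reads and counted them per gene with STAR (version 250a per the labels). The deposited counts are whole numbers per gene without normalization. The labels name mm9, but 97.9% of gene starts or ends in the tables lie within 1000 bases of GRCm38.p6 and 5.17% of those of the mm9 annotation, so coordinates are given in GRCm38. Strand use is not given in the sources used here. Gene lengths are those the deposited tables list.

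The counts were tested with edgeR 4.0.16 (R 4.3.3, TMM factors, quasi-likelihood F-test, legacy form) on genes above 1 CPM in at least 6 libraries, with sex and alleles lost (0, 1, 2), and Benjamini-Hochberg adjustment over all genes at an FDR of 0.05. Hippocampal fits first left out Sample_1160, since the study excluded 1 unnamed outlier library and an earlier analysis of these counts pointed to this one. The animal numbers in the labels pair the tissues, as each animal gave both. DESeq2 1.42.0, other factors, no filter and leaving out each animal were alternatives. The limit of 1 CPM for testing used the library total without TMM factors. Intervals are 95% intervals of the fits. Genes named in the text are all members, the list genes called per allele in cerebellum (up to 6 a list) and a set of receptors, partners and paralogs. List genes called above Sample_1219, and the cerebellar genes of Sample_1129, were named after their values were seen. Members and lists were chosen with earlier results of these data known. Scripts were tested on simulated data. P-values of fits within a tissue set a difference against the spread between animals. That spread includes differences between the ranges of numbers where these are not in the model. The first fits between tissues treated both libraries of an animal as independent, and the pairing entered only with the animal as a block. Some genes of the lists are not reported here by name.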

Additional observations from a re-analysis of the deposited data

Results flagged for a closer look

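Of 54 groups of 6 libraries (9 genes, 3 genotypes and 2 tissues), 10 held a library far from the others by Dixon's test, where chance alone gives about 1 in 20 groups. In control hippocampus the library of Sample_1129 was the highest for *Cbln3* at 71.4 CPM, *Fat2* at 42.1, *Cbln1* at 38.1, *Chn2* at 51.8 and *Zic2* at 36.5 CPM. In cKO+/- hippocampus the library of Sample_1433 was the highest for *Etv1* at 81.9, *Cbln3* at 1.72 and *Fat2* at 1.64 CPM, and in cKO+/- cerebellum that animal was the lowest for *Etv1* at 169 CPM. In cKO-/- hippocampus the library of Sample_1385 was the highest for *Zic1* at 18.7 CPM.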

How the results depend on the processing

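In no setting other than leaving out an animal did the count of members called per allele in cerebellum differ from 0, and the members called between the control tissues stayed at 9 except with DESeq2, which gave 6 an adjusted p. Over all genes, the count called per allele in cerebellum was 308 with a covariate for numbers outside Sample_1120 to Sample_1219, 277 with animals Sample_1120 to Sample_1219 only and 365 with 3 ranges of numbers, and in hippocampus 1056 with DESeq2, 246 with all 18 libraries, 68 with the covariate, 27 with animals Sample_1120 to Sample_1219 only and 58 with 3 ranges. The fits restricted to Sample_1120 to Sample_1219 and those with 3 ranges were added after seeing the data. The cause of these moves was not tested.

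Per allele in cerebellum, the log2 differences that changed sign became 0.057 for *Cbln1*, 0.10 for *Cbln3*, 0.076 for *Fat2*, 0.062 for *Zic1*, 0.051 for *Zic2*, 0.062 for *Etv1*, 0.10 for *Neurod1*, 0.020 for *Reln* and 0.016 for *Chn2* with animals Sample_1120 to Sample_1219 only. With 3 ranges of numbers they became 0.054 for *Cbln1*, 0.089 for *Cbln3*, 0.055 for *Fat2*, 0.047 for *Zic1*, 0.045 for *Zic2*, 0.024 for *Etv1* and 0.087 for *Neurod1*. With a covariate for numbers outside Sample_1120 to Sample_1219 they became 0.037 for *Cbln3*, 0.0014 for *Zic1* and 0.042 for *Neurod1*. For cKO-/- against control in cerebellum, the log2 differences that changed sign became 0.028 for *Cbln1*, 0.10 for *Cbln3*, 0.0019 for *Fat2*, 0.030 for *Zic1*, 0.026 for *Zic2* and 0.10 for *Neurod1* with a covariate for numbers outside Sample_1120 to Sample_1219. With animals Sample_1120 to Sample_1219 only they became 0.052 for *Cbln1*, 0.16 for *Cbln3*, 0.15 for *Fat2*, 0.094 for *Zic1*, 0.040 for *Zic2*, 0.12 for *Etv1*, 0.20 for *Neurod1*, 0.050 for *Reln* and 0.032 for *Chn2*. With 3 ranges of numbers they became 0.11 for *Cbln1*, 0.18 for *Cbln3*, 0.12 for *Fat2*, 0.10 for *Zic1*, 0.10 for *Zic2*, 0.057 for *Etv1* and 0.17 for *Neurod1*. For cKO+/- against control in cerebellum, the log2 differences that changed sign became 0.22 for *Cbln1*, 0.24 for *Cbln3*, 0.21 for *Fat2*, 0.18 for *Zic1*, 0.21 for *Zic2*, 0.20 for *Etv1*, 0.16 for *Neurod1*, 0.12 for *Reln* and 0.10 for *Chn2* with a covariate for numbers outside Sample_1120 to Sample_1219. With the scores of the brainstem and choroid plexus lists as covariates they became 0.075 for *Cbln1*, 0.090 for *Cbln3*, 0.0086 for *Fat2*, 0.093 for *Zic1*, 0.088 for *Zic2*, 0.042 for *Etv1* and 0.028 for *Neurod1*. With animals Sample_1120 to Sample_1219 only they became 0.20 for *Cbln1*, 0.19 for *Cbln3*, 0.088 for *Fat2*, 0.14 for *Zic1*, 0.20 for *Zic2*, 0.075 for *Etv1*, 0.10 for *Neurod1* and 0.017 for *Chn2*. With 3 ranges of numbers they became 0.15 for *Cbln1*, 0.18 for *Cbln3*, 0.12 for *Fat2*, 0.13 for *Zic1*, 0.15 for *Zic2*, 0.12 for *Etv1*, 0.11 for *Neurod1*, 0.059 for *Reln* and 0.042 for *Chn2*. Without a filter they became 0.0013 for *Cbln3* and 0.0013 for *Zic1*. In cerebellum for cKO-/- against cKO+/-, the log2 differences that changed sign became 0.059 for *Fat2*, 0.044 for *Etv1*, 0.10 for *Neurod1*, 0.053 for *Reln* and 0.014 for *Chn2* with animals Sample_1120 to Sample_1219 only. With 3 ranges of numbers they became 0.0046 for *Cbln3* and 0.069 for *Neurod1*. In hippocampus for cKO-/- against control, the log2 differences that changed sign became 0.058 for *Zic2* with animals Sample_1120 to Sample_1219 only. For the allele effect between the tissues, the log2 differences that changed sign became 0.020 for *Etv1*, 0.21 for *Neurod1*, 0.14 for *Reln* and 0.085 for *Chn2* with 3 ranges of numbers. With the animal as a block, a pairing given by both tissues coming from the same animal, they became -0.089 for *Cbln1* and -0.048 for *Zic2*. With a covariate for numbers outside Sample_1120 to Sample_1219 they became 0.14 for *Neurod1*, 0.061 for *Reln* and 0.025 for *Chn2*. With animals Sample_1120 to Sample_1219 only they became 0.27 for *Neurod1*, 0.060 for *Reln* and 0.16 for *Chn2*. The block changed no call.

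Leaving out each animal in turn gave 0 to 1 members called per allele in cerebellum and 0 to 1 between cKO-/- and control, the 1 being Chn2 without Sample_1160 or Sample_1219. Over all genes, 928 were called in cerebellum without Sample_1385 and 2572 without Sample_1160, the lowest and highest counts, and 286 were called in hippocampus without Sample_1371 and 937 without Sample_936. Per allele in cerebellum, the log2 differences ran from -0.28 to -0.16 for *Chn2*. Without Sample_1385 the estimate per allele moved nearest to 0 for 6 other members by over 1.5 times, to -0.051 for *Zic1*, -0.062 for *Neurod1*, -0.057 for *Cbln3*, -0.083 for *Cbln1*, -0.12 for *Fat2* and -0.079 for *Zic2*. For cKO-/- against control in cerebellum, the log2 differences ran from -0.56 to -0.32 for *Chn2*. For cKO+/- against control in cerebellum, the log2 differences ran from -0.20 to 0.011 for *Fat2*, -0.11 to 0.035 for *Etv1*, -0.074 to 0.11 for *Cbln3*, -0.084 to 0.10 for *Zic2*, -0.18 to 0.0084 for *Neurod1*, -0.086 to 0.12 for *Cbln1* and -0.057 to 0.10 for *Zic1*. Per allele in hippocampus, the log2 differences ran from -0.23 to 0.00044 for *Zic2*, -0.089 to 0.0073 for *Neurod1*, -0.054 to 0.0065 for *Reln*, -0.11 to 0.067 for *Chn2* and -0.39 to 0.15 for *Cbln1*. In hippocampus for cKO-/- against control, the log2 differences ran from -0.17 to 0.016 for *Neurod1*, -0.22 to 0.13 for *Chn2* and -0.83 to 0.28 for *Cbln1*. For the allele effect between the tissues, the log2 differences ran from -0.14 to 0.15 for *Zic2*, -0.13 to 0.012 for *Neurod1* and -0.31 to 0.28 for *Cbln1*. For the allele effect between the sexes, the log2 differences ran from -0.034 to 0.19 for *Cbln3*, -0.090 to 0.10 for *Zic2*, -0.10 to 0.15 for *Neurod1*, -0.069 to 0.20 for *Chn2* and -0.16 to 0.066 for *Cbln1*.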
